A study of Homo sapiens with 7 samples.

Results

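TXNIP (thioredoxin-interacting protein) and the arrestin-domain genes ARRDC1, ARRDC2, ARRDC3 and ARRDC4 were followed through heat stress and recovery in HSC-3 cells, a human line established from a squamous carcinoma of the mouth. The 5 genes were taken by name from the array annotation, which assigned 8 of the 54675 probe sets to one of them alone, and all 8 are described. The members were chosen by their intensities on these same 7 arrays, where the family was seen to rise during recovery, so their values are given as a description with no test attached. The arrays held 19775 genes with a probe set of their own, and 14973 of these, among them all 5 members, reached a floor of 21.35 intensity units on at least 1 array. The floor is the median of all deposited intensities.

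Cells were heated at 44 °C or at 42 °C for 90 min and collected after 0, 6 or 12 h back at 37 °C, and the control cells stayed at 37 °C without treatment. RNA from each of these 7 conditions went onto 1 Affymetrix array, so no difference here has a replicate check, no p-value is given, and the number of arrays limits the precision. All 6 comparisons with the control share the single control array. Because the RNA came from whole cultures, fewer cells carrying a transcript and less of it per cell cannot be told apart.

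The arrays differed in level. Median intensity ranged from 18.7 to 32.1 on the heated arrays and was 22.4 on the control array, and the probe sets that never dropped under the floor had a median shift against the control, in log2 units, of between -0.35 (44 °C, 12 h) and 0.40 (44 °C, 0 h). A gene is therefore said to have risen or fallen only where it differed by at least 2-fold (1 log2 unit) under each of 3 scalings: the deposited values, quantile normalized values and values shifted to a common array median. As a check of the heat labels, HSPA6, a strictly inducible HSP70 chaperone, read 5143 units at 44 °C, 0 h and 12566 units at 42 °C, 0 h, against 4.82 units in the control. Of 10 squamous epithelial markers, 6 had a probe set of their own and all 6 were above 4 times the floor, with a summed intensity of 42354 to 58343 units on heated arrays and 42381 units on the control array. Of fibroblast markers 1 of 7 reached that level (COL1A1), and none of 5 leukocyte markers and none of 5 endothelial markers with a probe set did. The leukocyte markers PTPRC and LYZ and the endothelial markers VWF, CDH5, KDR and TEK were below the floor on all 7 arrays. The other 3 leukocyte markers and the other endothelial marker reached the floor on at least 1 array, and 1 of each list did so on all 7. Of the 7 fibroblast markers 5 reached it on at least 1 array and 1 on all 7, and LUM and PDGFRA were below it throughout.

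TXNIP and the ARRDC proteins are the alpha-arrestins, adaptor proteins with an arrestin fold. Most carry short PPxY motifs that dock NEDD4-family ubiquitin ligases, through which they direct membrane proteins such as receptors and transporters into endocytosis. TXNIP also binds and inhibits thioredoxin and lowers glucose uptake by promoting the internalisation of glucose transporters. TXNIP and ARRDC4 are the best known targets of MondoA (MLXIP), a transcription factor that senses glucose phosphates and acts with its partner MLX at paired E-box-like sites in promoters.

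The 250 bases upstream of the annotated transcription start of TXNIP, ARRDC4 and ARRDC3 are shown because these are the 3 members whose levels moved most. They are RefSeq sequences of build GRCh38.p14, printed 5′ to 3′ on the strand of the gene, and capitals mark every match to an E-box, a paired half-site, a forkhead motif or a CCAAT box on either strand. TXNIP lies on the minus strand (chr1:145996580-145996829), ARRDC4 on the plus strand (chr15:97960453-97960702) and ARRDC3 on the minus strand (chr5:91383318-91383567).
TXNIP: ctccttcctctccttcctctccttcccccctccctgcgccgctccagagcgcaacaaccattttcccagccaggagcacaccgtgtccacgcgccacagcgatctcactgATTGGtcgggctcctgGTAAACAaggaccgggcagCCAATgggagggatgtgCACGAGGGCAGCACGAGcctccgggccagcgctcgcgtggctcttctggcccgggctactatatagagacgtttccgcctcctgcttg
ARRDC4: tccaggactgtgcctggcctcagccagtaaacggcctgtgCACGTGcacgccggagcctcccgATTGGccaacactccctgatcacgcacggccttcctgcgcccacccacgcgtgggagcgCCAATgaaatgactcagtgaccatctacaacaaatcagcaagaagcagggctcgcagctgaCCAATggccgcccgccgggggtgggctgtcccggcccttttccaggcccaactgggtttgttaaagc
ARRDC3: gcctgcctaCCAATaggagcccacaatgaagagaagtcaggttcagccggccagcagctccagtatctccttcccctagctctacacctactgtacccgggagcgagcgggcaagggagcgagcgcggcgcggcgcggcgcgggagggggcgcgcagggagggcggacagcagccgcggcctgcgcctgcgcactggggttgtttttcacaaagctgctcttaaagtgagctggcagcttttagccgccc

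All 5 members were found in the promoter table, with 8 windows between them that each ran from 250 bases before to 50 bases after a start. The TXNIP window held a pair of CACGNG half-sites 5 bases apart, from base -88 to base -72 relative to the start, on the plus strand of the gene. This arrangement, searched on both strands after the sequence had been seen, occurred in 20 of 35116 promoter windows (0.057%). The carbohydrate response element consensus, which asks for other letters at its second half-site, matched 0 of the 8 member windows and 0.0883% of all windows. The ARRDC4 window held a full E-box, CACGTG, from base -210 to base -205, a motif present in 7.26% of windows.

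A forkhead motif, GTAAACA, lay in the TXNIP window from base -124 to base -118 and, on the opposite strand, in the window of a second ARRDC3 start from base -29 to base -23, against 3.42% of windows overall. CCAAT boxes, searched as CCAAT on both strands, occurred in 5 of the 8 windows and at least once in each of the 5 genes, against 34.6% of all windows, and ARRDC4 had 3 of them and TXNIP had 2. The heat shock element half-site pairs GAANNTTC and TTCNNGAA, which are found in 6.77% and 7.74% of windows, matched none of the 8. A TATA box, TATAAA, was found only in the window of the second ARRDC2 start, against 11.5% of windows. No matches in these windows overlapped one another, and they describe letters, not binding.

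**Figure D1:**
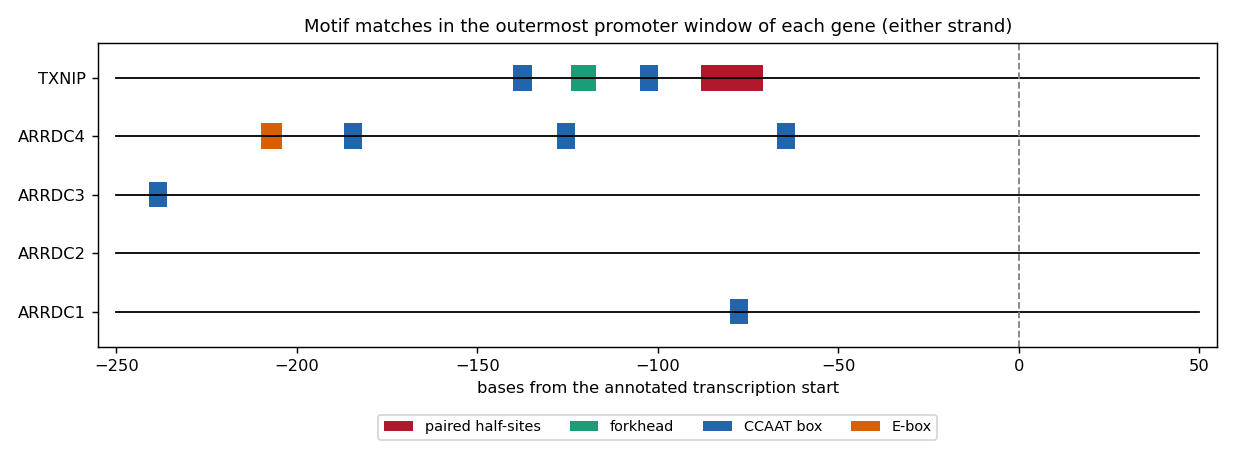
Positions of motif matches, in bases from the annotated transcription start (x axis, 250 before to 50 after), in the outermost promoter window of TXNIP, ARRDC4, ARRDC3, ARRDC2 and ARRDC1 (rows), with each block 1 match on either strand. TXNIP and ARRDC4 each show several blocks, and the paired half-sites stand in the TXNIP row alone.

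TXNIP rose on all 3 arrays after the milder heat and, as deposited, stayed within 2-fold of the control after the stronger one. Its probe set with the highest mean, 201010_s_at, read 1312, 1197 and 1501 units at 0, 6 and 12 h after 44 °C and 2196, 3434 and 2391 units at 0, 6 and 12 h after 42 °C, against 949 units in the control. All 6 heated arrays were above the control, and each 42 °C array was above each 44 °C array. TXNIP rose 2.31-fold at 42 °C, 0 h, before any recovery, 3.62-fold at 6 h and 2.52-fold at 12 h.

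At 44 °C the corresponding log2 differences of TXNIP were 0.47, 0.33 and 0.66, none of which reached 2-fold as deposited. At 44 °C, 12 h the median shift gave 1.11 and quantile normalization 0.87, so the later 44 °C value sat near the threshold and depended on the scaling. Among all 14973 genes, TXNIP had the 136th largest difference at 42 °C, 0 h, the 37th at 6 h and the 87th at 12 h, and it held rank 6652 at 44 °C, 0 h, rank 2473 at 6 h and rank 598 at 12 h.

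The other TXNIP probe sets also rose at 0 and 6 h after 42 °C. At 44 °C, 6 h they read just below the control as deposited, and at or just above it under the other scalings. Probe set 201008_s_at read 638, 582 and 862 units after 44 °C (0, 6 and 12 h) and 1443, 2270 and 1231 units after 42 °C, against 592 units in the control. Probe set 201009_s_at read 796, 576 and 903 units after 44 °C and 1285, 1933 and 1017 units after 42 °C, against 603 units in the control. All 3 probe sets rose at 42 °C, 0 h (by 1.09 to 1.28 log2 units) and at 42 °C, 6 h (by 1.68 to 1.94 log2 units). At 42 °C, 12 h they differed from the control by 0.75 to 1.33 log2 units, and only 201010_s_at passed under every scaling. The suffix of these probe sets marks probes that match more than one transcript.

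**Figure D2:**
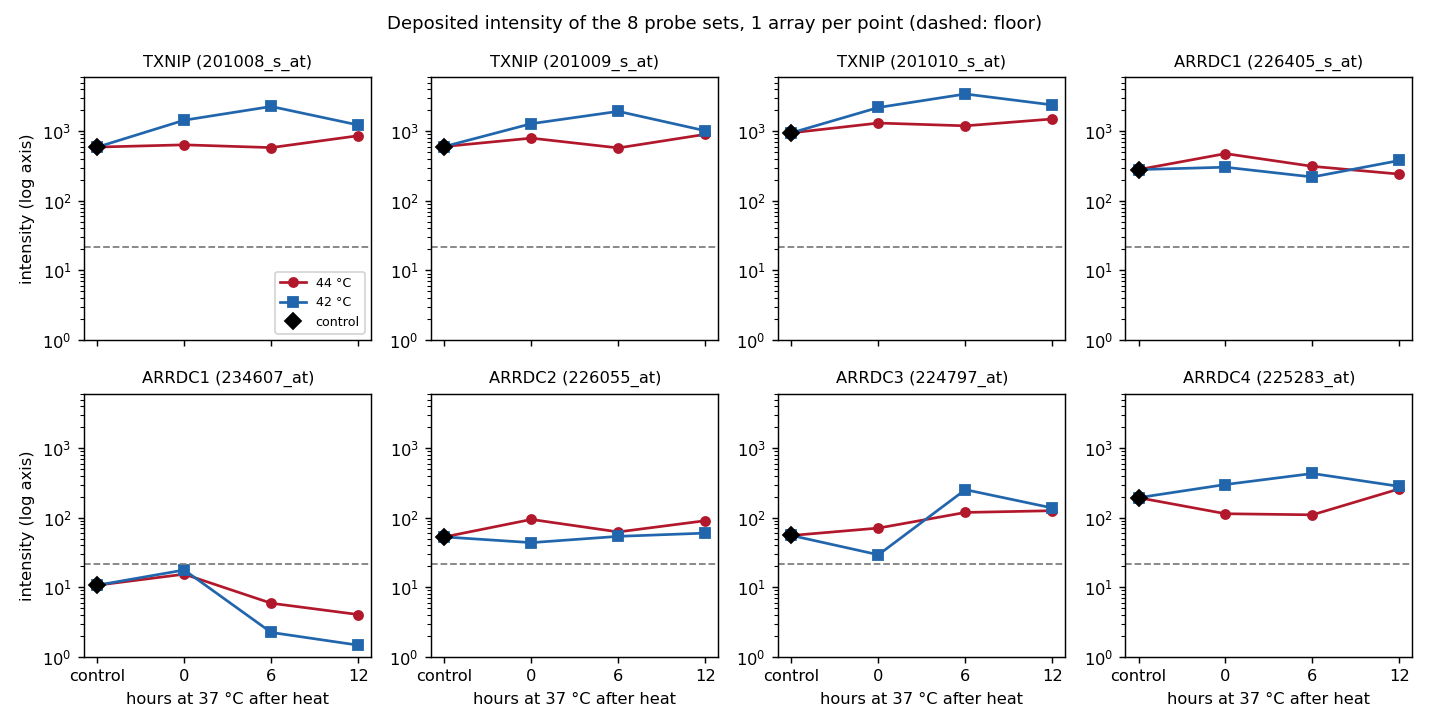
Deposited intensity (y axis, log scale) of each of the 8 probe sets against hours at 37 °C after heat (x axis, control at the left), with red circles for 44 °C, blue squares for 42 °C, a black diamond for the control and a dashed line at the floor of 21.35 units; each point is 1 array. The TXNIP and ARRDC4 panels show the 42 °C line above the 44 °C line at 0 and 6 h, ARRDC3 at 42 °C dips at 0 h and peaks at 6 h, and probe set 234607_at of ARRDC1 lies below the floor on every array.

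ARRDC3, which in cultured cells guides adrenergic receptors and integrin beta 4 toward degradation, had the largest rise of the family against the control and was the only member to rise after both temperatures, although with a floor 4 times higher only its rise at 42 °C, 6 h passed. Its single probe set, 224797_at, read 70.9, 119 and 126 units at 0, 6 and 12 h after 44 °C and 29.3, 253 and 138 units at 0, 6 and 12 h after 42 °C, against 55.5 units in the control. The 4 arrays taken at 6 and 12 h were the highest, and the array taken directly after 42 °C was the lowest of all 7. ARRDC3 rose 2.15-fold at 44 °C, 6 h and 2.27-fold at 44 °C, 12 h, and it rose 4.56-fold at 42 °C, 6 h and 2.50-fold at 42 °C, 12 h.

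Directly after heat ARRDC3 differed from the control by 0.35 log2 units at 44 °C and by -0.92 at 42 °C, neither past 2-fold, and the 44 °C value changed sign to -0.11 after quantile normalization. At 42 °C, 6 h its difference ranked 16th of 14973 genes. The probe set was dim, with its control value of 55.5 units not far above the floor of 21.35.

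ARRDC4, a glucose-responsive alpha-arrestin that shares with TXNIP an effect on glucose uptake, lay on opposite sides of the control after the 2 temperatures at 0 and 6 h. Probe set 225283_at read 114, 110 and 260 units at 0, 6 and 12 h after 44 °C and 300.3, 432 and 282 units at 0, 6 and 12 h after 42 °C, against 194 units in the control. The 44 °C arrays at 0 and 6 h were below the control and all other heated arrays were above it. At 42 °C, 6 h ARRDC4 stood 2.23-fold above the control in the deposited values, but its log2 difference was 0.86 under quantile normalization and 0.88 under the median shift, so it did not pass.

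At 44 °C, 0 h the deposited log2 difference of ARRDC4 was -0.76, and it was -1.20 under quantile normalization and -1.09 under the median shift. The deposited value was smaller on an array whose overall level was 0.40 log2 units above the control. At 44 °C, 12 h the ARRDC4 difference was 0.42 as deposited, 0.88 under quantile normalization and 0.87 under the median shift. That array had an overall level of -0.35 log2 units against the control.

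ARRDC2, a little studied member, and ARRDC1, which buds extracellular vesicles from the plasma membrane with TSG101, did not rise or fall in any comparison with the control. Probe set 226055_at of ARRDC2 read 94.4, 62.4 and 90.5 units at 0, 6 and 12 h after 44 °C and 43.8, 53.9 and 60.0 units after 42 °C, against 52.9 units in the control. The 3 values after 44 °C were the highest of the 7, and at 12 h the log2 difference was 0.78 as deposited, 1.25 under quantile normalization and 1.22 under the median shift. The 42 °C values lay within 0.27 log2 units of the control.

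Probe set 226405_s_at of ARRDC1 read 477, 313 and 242 units at 0, 6 and 12 h after 44 °C and 304, 220 and 380 units after 42 °C, against 281 units in the control, with no value past 2-fold. Its largest log2 difference, 0.76 at 44 °C, 0 h, was on the array with the highest overall level and came to 0.47 after quantile normalization. The other ARRDC1 probe set, 234607_at, was below the floor on all 7 arrays and gives no difference.

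Set side by side, TXNIP alone rose at 42 °C, 0 h, where 1.46% of all genes rose. TXNIP and ARRDC3 rose at 42 °C, 6 h, where 1.36% of genes rose, and again at 42 °C, 12 h, where 0.955% did. At 44 °C no member rose at 0 h (2.38% of genes), and ARRDC3 alone rose at 6 h (1.49%) and at 12 h (1.7%). No member fell against the control on any array. The share of all genes that fell was 0.675%, 2.46% and 2.97% at 0, 6 and 12 h after 44 °C and 3.04%, 1.95% and 1.36% after 42 °C. The median log2 difference of the 5 members was 0.47, 0.24 and 0.66 at 0, 6 and 12 h after 44 °C and 0.11, 1.16 and 0.54 after 42 °C. The median over all genes was 0.38, 0.00 and -0.16 after 44 °C and -0.07, 0.13 and 0.09 after 42 °C. The rise therefore described 2 genes of the family by the rule used here, with ARRDC4 as a near case at 42 °C, 6 h, and the label of a family that rises as a whole did not hold for ARRDC1 and ARRDC2. The members were chosen for these contrasts, and nothing is read from the shares.

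**Figure D3:**
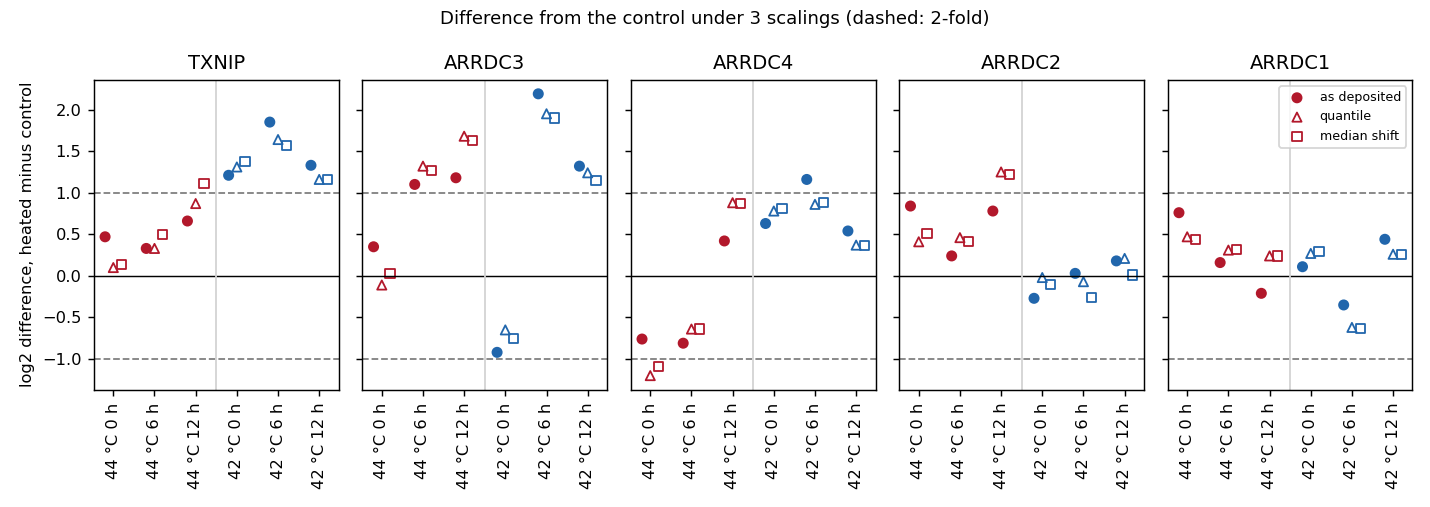
Log2 difference from the control (y axis, heated minus control) of TXNIP, ARRDC3, ARRDC4, ARRDC2 and ARRDC1 on the 6 heated arrays (x axis, 44 °C in red, 42 °C in blue), as deposited (filled circles), quantile normalized (triangles) and median shifted (squares), with dashed lines at 2-fold. TXNIP lies above 1 under every scaling on the 3 arrays after 42 °C, ARRDC3 does so at 6 and 12 h after both temperatures, and ARRDC4 lies below 0 at 0 and 6 h after 44 °C.

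Between the temperatures TXNIP and ARRDC4 were the members that passed under all scalings. At 6 h TXNIP read 1197 units after 44 °C and 3434 units after 42 °C, a 2.87-fold fall, and all 3 TXNIP probe sets fell, by 1.52 to 1.96 log2 units. ARRDC4 fell 3.92-fold at 6 h, with 110 units after 44 °C and 432 units after 42 °C. At 6 h 4.03% of all genes fell and 1.68% rose between these arrays, and no member rose.

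At 0 h ARRDC4 fell 2.63-fold, with 114 units after 44 °C and 300.3 units after 42 °C, where 0.608% of genes fell and 3% rose. This fall ranked 32nd from the lowest of 14973 genes. TXNIP at 0 h had a deposited log2 difference of -0.74 between 44 °C and 42 °C, and -1.21 after quantile normalization. ARRDC3 at 0 h was 1.28 log2 units higher after 44 °C than after 42 °C as deposited, but 0.54 after quantile normalization, and at 6 h it was -1.08 as deposited and -0.63 after quantile normalization, so neither passed. By 12 h no member passed in either direction, with 1.76% of genes risen and 3.15% fallen at that time. The direction rested on the scaling for ARRDC3, for ARRDC4 and for the TXNIP probe sets 201008_s_at and 201009_s_at. The 12 h difference of TXNIP on 201010_s_at was -0.67 as deposited, -0.29 quantile normalized and -0.05 median shifted. That of ARRDC3 was -0.14 as deposited but 0.44 and 0.48 under those scalings, and that of ARRDC4 was -0.11 as deposited but 0.51 under both. ARRDC2 was 0.59 higher after 44 °C as deposited and passed 2-fold under the other scalings alone, at 1.04 and 1.22, and ARRDC1 was at -0.65 as deposited, -0.01 quantile normalized and -0.03 median shifted. The same arrays enter the comparisons with the control, so these values are not a separate view of them.

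**Figure D4:**
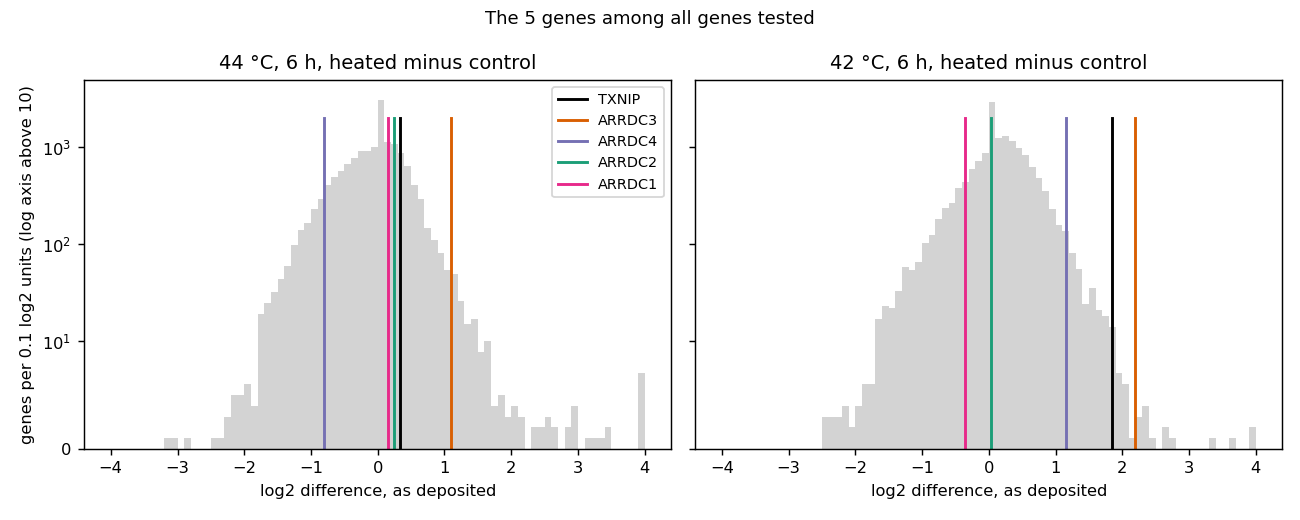
Number of genes (y axis, log scale above 10) by log2 difference from the control (x axis, bins of 0.1, values beyond 4 placed in the last bin) over all 14973 genes at 6 h after 44 °C (left) and 42 °C (right), as deposited, with a vertical line for each member whose height carries no value. At 42 °C the lines of ARRDC3 (2.19) and TXNIP (1.85) stand in the right tail, and at 44 °C the TXNIP line (0.33) lies in the body of the distribution and that of ARRDC4 (-0.81) on its left side.

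Along recovery the members followed different courses. ARRDC3 rose 8.63-fold as deposited at 6 h after 42 °C, with 253 units against 29.3 units at 0 h, a value near the floor of 21.35. Its log2 difference was 3.11 as deposited, 2.60 under quantile normalization and 2.65 under the median shift. It held rank 6 from the highest among all genes, of which 3.46% rose and 1.04% fell. TXNIP was already raised at 0 h, and its further difference at 6 h against 0 h after 42 °C was 0.65 log2 units as deposited and 0.33 after quantile normalization. Between 6 and 12 h after 42 °C the deposited differences of TXNIP, ARRDC3 and ARRDC4 were -0.52, -0.87 and -0.62 (12 h minus 6 h), none past 2-fold, with 0.888% of genes fallen and 0.962% risen.

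After 44 °C the ARRDC4 level changed late. It rose 2.36-fold at 12 h, with 260 units against 110 units at 6 h, and held rank 66 from the highest among all genes, of which 0.955% rose and 0.862% fell. ARRDC3 at 44 °C, 6 h was 0.75 log2 units above 0 h as deposited, 1.43 under quantile normalization and 1.24 under the median shift, on a pair of arrays in which 0.22% of genes rose and 1.24% fell. The TXNIP difference between these arrays (6 h minus 0 h) was -0.13 log2 units as deposited but 0.22 quantile normalized and 0.36 median shifted, and its difference between 12 h and 6 h was 0.33 as deposited.

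Genes whose courses lay closest to a member were found by the root mean square distance between their log2 differences from the control over the 6 heated arrays, among 9681 genes that reached 4 times the floor on some array. The closest to TXNIP were FZD1, a Wnt receptor, at a distance of 0.336 log2 units, PKIB, an inhibitor of protein kinase A, at 0.374, TEAD2, a transcription factor of the Hippo pathway, at 0.388, and SERPINH1, a collagen chaperone of the endoplasmic reticulum, at 0.395. FZD1 and SERPINH1 were also among the closest 4 after quantile normalization, and PKIB and TEAD2 were not. The closest to ARRDC3 were the cytokine IL6 (0.509), carbonic anhydrase CA2 (0.563), ZNF488 (0.580) and CLEC2B (0.587), which are all further off than the neighbours of TXNIP. After quantile normalization IL6, CA2 and ZNF488 were again among the closest 4 to ARRDC3, and CLEC2B was not.

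The closest to ARRDC4 was SPTY2D1, a histone chaperone, at 0.255 log2 units, followed by ZNF222 (0.352), the acyltransferase GPAT3 (0.354) and the deubiquitinase CYLD (0.367), and the same 4 genes came out after quantile normalization. SPTY2D1 had log2 differences of -0.47, -0.70 and 0.32 after 44 °C and 0.97, 0.91 and 0.22 after 42 °C, beside -0.76, -0.81 and 0.42 after 44 °C and 0.63, 1.16 and 0.54 after 42 °C for ARRDC4. Members were not each other's nearest genes. Among the neighbours of TXNIP, ARRDC4 held rank 910 (distance 0.849) and ARRDC3 rank 2221 (distance 0.960). Among the neighbours of ARRDC3, TXNIP held rank 248 as deposited and rank 195 after quantile normalization.

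MondoA, its partner MLX and its relative MLXIPL did not pass as risen in any comparison with the control. MLXIP (MondoA) read 387, 304 and 191 units at 0, 6 and 12 h after 44 °C and 267, 178 and 284 units after 42 °C, against 226 units in the control. Its partner MLX read 1623, 899 and 830 units after 44 °C and 753, 1188 and 961 units after 42 °C, against 853 units in the control. Neither passed 2-fold in any comparison with the control, and at 42 °C, 6 h, where TXNIP peaked, MLXIP had a log2 difference of -0.34 and MLX of 0.48. MLXIPL (ChREBP), the relative of MondoA known from liver, was at 33.4 units in the control and below the floor on all 6 heated arrays.

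In the list of glucose sensing and uptake, 11 of 12 genes had a probe set of their own, and 1 of these rose in each of 2 comparisons with the control. The glucose transporter gene SLC2A3 rose at 42 °C, 6 h, to 58.9 units against a value below the floor in the control, at least 2.76-fold on the deposited scale and 1.33 and 1.18 log2 units under the other scalings, on a probe set whose suffix marks possible cross-hybridisation. KLF10, a Kruppel-like transcription factor, rose 2.15-fold at 44 °C, 12 h, with 1931 units against 900.1 units in the control. Of all genes, 1.36% rose at 42 °C, 6 h and 1.7% at 44 °C, 12 h. The median of the list at 42 °C, 6 h was 0.48 as deposited, beside 0.13 for all genes, and 0.18 beside 0.00 after quantile normalization. Between temperatures PFKFB4, which makes and breaks down fructose 2,6-bisphosphate, fell 3.68-fold at 6 h, where 4.03% of all genes fell. It read 31.0 units after 44 °C and 114 units after 42 °C, and was named after its values were seen.

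Of 14 genes of the thioredoxin system, 12 had a probe set of their own, and 1 of them rose in 1 comparison with the control. TXN2, the mitochondrial thioredoxin, rose 2.53-fold at 44 °C, 0 h, with 785 units against 311 units in the control. In that comparison 2.38% of all genes rose. TXN, the cytosolic thioredoxin that TXNIP binds, read 12242, 10308 and 9037 units after 44 °C (0, 6 and 12 h) and 8534, 10312 and 9550 units after 42 °C, against 8759 units in the control. Its largest log2 difference was 0.48. Thioredoxin reductase 1 (TXNRD1), which recycles thioredoxin, read 3013, 2807 and 2773 units after 44 °C and 2847, 5260 and 4906 units after 42 °C, against 3680 units in the control, within 2-fold throughout. The list median at 42 °C, 6 h was 0.35 as deposited and 0.08 after quantile normalization.

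Of 14 NEDD4-family ligases and ESCRT partners, through which alpha-arrestins act on their cargo, 13 had a probe set of their own. None of these rose or fell against the control. In those comparisons 0.955% to 2.38% of all genes rose and 0.675% to 3.04% fell, so nothing is read from the count. ITCH, a ligase known to target TXNIP, had log2 differences of 0.87, 0.25 and -0.02 at 0, 6 and 12 h after 44 °C and of -0.25, 0.31 and 0.48 after 42 °C. The ligase NEDD4, named after its values were seen, fell 3.23-fold at 12 h between temperatures, where 3.15% of all genes fell. It read 111 units after 44 °C and 358 units after 42 °C. Against 297 units in the control, NEDD4 at 44 °C, 12 h was 2.68-fold lower as deposited. Its log2 difference there was -0.99 under quantile normalization and -0.97 under the median shift, so it narrowly did not pass. In that comparison 2.97% of all genes fell. The median of this list was -0.18 at 44 °C, 6 h and 0.11 at 42 °C, 6 h, beside 0.00 and 0.13 for all genes.

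Of 8 other proteins with an arrestin fold, 6 had a probe set of their own, and none rose or fell. Counted for each direction apart, the share of all genes that passed in a comparison was 0.22% to 4.03%. ARRB1, a beta-arrestin that uncouples G protein-coupled receptors, was near the floor, with 45.6, 15.6 and 30.6 units after 44 °C and 13.6, 21.0 and 35.0 units after 42 °C, against 23.6 units in the control. The beta-arrestin ARRB2 and the alpha-arrestin ARRDC5 had no probe set assigned to them alone and were not analysed here. The list median was -0.07 at 44 °C, 6 h and 0.07 at 42 °C, 6 h.

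**Figure D5:**
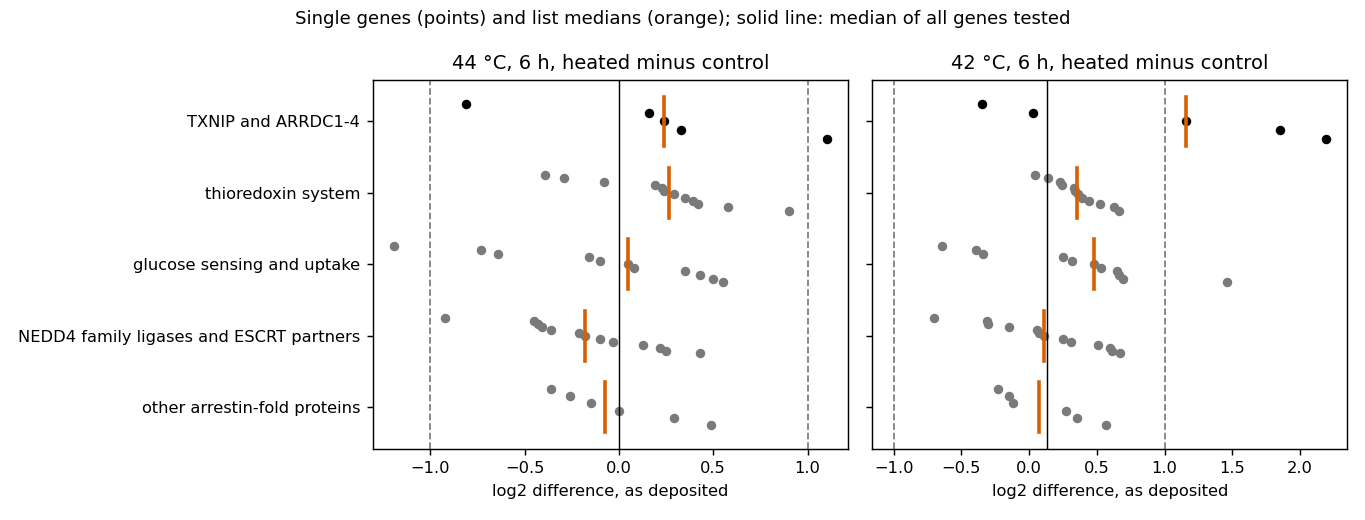
Log2 difference from the control as deposited (x axis) at 6 h after 44 °C (left) and 42 °C (right) for the members and for the genes of each list (rows; points are genes, orange bars medians), with a solid line at the median of all genes and dashed lines at 2-fold. At 42 °C the members run from -0.35 to 2.19 with a median of 1.16, while the list medians lie between 0.07 and 0.48.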

How the data were processed

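Probe set intensities deposited by the authors were used for 7 Affymetrix U133 Plus 2.0 arrays, 1 per condition. Per the labels' protocols 5 µg of total RNA was labelled for each; the sources used here do not say how probes were summarised. All 7 columns were used, and 0 belonged to other samples. Units, folds and ranks are from the deposited intensities without rescaling unless a scaling is named, while calls needed all 3 scalings. Under each scaling, values under the floor of 21.35 were set to it and log2 was taken. Probe sets were named from the platform annotation, with symbols updated through GRCh38.p14 (41097 list 1 gene, 1801 several, 11777 are not listed). Where several probe sets list a gene alone, the one with the highest mean log2 stands for it. The median shift used the 20902 probe sets never under the floor. Python 3.11.15, numpy 2.4.6 and pandas 2.3.3 were used, and the call rule was tested on simulated data. The simulation held only 4-fold changes in probe sets at or above 4 times the floor. It does not bear on calls near 2-fold or on dim probe sets. The members and lists were chosen with earlier results of these data known. Named genes are the members, up to 4 list genes with the largest change per list, 10 genes named in the plan, of which ARRB2 had no probe set of its own, and the 4 closest genes to TXNIP, ARRDC3 and ARRDC4. Promoter sequences are from RefSeq. Alternatives were single scalings, no floor, a floor 4 times higher and the mean of a gene's probe sets.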

Additional observations from a re-analysis of the deposited data

Results flagged for a closer look

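In 4 cases a member lay on opposite sides of the control after the 2 temperatures at the same time, under all 3 scalings. There was 1 array on each side, so these differences were not tested. ARRDC4 had a log2 difference of -0.76 at 0 h after 44 °C and 0.63 at 0 h after 42 °C. At 6 h ARRDC4 had -0.81 after 44 °C and 1.16 after 42 °C. ARRDC2 had 0.84 at 0 h after 44 °C and -0.27 at 0 h after 42 °C, and the whole 44 °C array was also brighter, with a median intensity of 32.1 units against 18.7. Under quantile normalization the ARRDC2 values were 0.41 and -0.02, and under the median shift 0.51 and -0.10. After scaling its 42 °C value therefore lay close to the control. ARRDC1 had 0.16 at 6 h after 44 °C and -0.35 at 6 h after 42 °C.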

How the results depend on the processing

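Over the 30 values of the 5 members against the control, 7 passed 2-fold under all 3 scalings, and 8, 9 and 10 passed with the deposited, quantile normalized and median shifted values alone. With the floor raised to 4 times its value 4 passed, and the 3 lost were ARRDC3 at 42 °C, 12 h and at 44 °C, 6 and 12 h, whose control value lies below that floor. Without a floor 7 passed, and with the mean of a gene's probe sets 6 passed, the call lost being TXNIP at 42 °C, 12 h. Over the 15 values between temperatures 3 passed, against 6 with deposited values alone, 5 with quantile normalized values and 5 with median shifted values. The cause was not tested. Along recovery 2 of 20 passed, and 3 with either scaled set alone, where ARRDC3 at 44 °C, 6 h against 0 h was added. No member difference of at least 2-fold changed sign in the alternatives run, and 9 smaller ones did under quantile normalization and 7 under the median shift. No paired analysis was possible because there is 1 array per condition. ARRDC3 and ARRDC2 were read at low intensity, near the floor, which limits their values.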

Other observations

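Both antisense transcripts of the family with a probe set of their own, which belong to no comparison above, were dim. The ARRDC3-AS1 probe set read 45.9, 26.2 and 26.7 units at 0, 6 and 12 h after 44 °C and 31.3, 41.7 and 38.6 units after 42 °C, against 39.1 units in the control, while ARRDC3 itself was highest at 42 °C, 6 h. The ARRDC1-AS1 probe set read 27.7, 46.4 and 4.08 units after 44 °C and 51.6, 57.1 and 22.4 units after 42 °C, against 65.3 units in the control, so all heated arrays were below the control and the 44 °C, 12 h array was below the floor. By the call rule it fell 2.92-fold at 42 °C, 12 h, 2.36-fold at 44 °C, 0 h and at least 3.06-fold at 44 °C, 12 h. Of all genes, 1.36%, 0.675% and 2.97% fell in those comparisons. Those readings were near or below the floor of 21.35 units. DNAJB1, the HSP40 partner of HSP70, read 6989 units at 12 h after 44 °C and 1299 units at 12 h after 42 °C, against 881 units in the control.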
